A study of Mus musculus with 8 samples.

Results

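The LPS response described here is that of bone-marrow-derived macrophages (BMDMs) that had first been exposed to IL-4. It was read from 4 of the 8 RNA-seq libraries of the series, chosen by their treatment labels alone. 2 libraries, IL-4 replicates 1 and 3, came from mouse BMDMs given 20 ng/ml IL-4 for 24 h. The other 2, IL-4 then LPS replicates 1 and 3, came from BMDMs given the same 20 ng/ml IL-4 for 24 h, washed free of it, and given 100 ng/ml LPS for 4 h. The remaining libraries, 2 of untreated control cells and 2 of cells given 100 ng/ml LPS for 4 h without IL-4, served to estimate the spread between replicates and as a point of comparison. The strain and age of the mice, whether libraries with the same replicate number share an animal, and the way the macrophages were grown from marrow are left unstated by the labels. By their sex-linked reads, given below, replicates 1 and 3 of each group came from different animals. The labels do not say whether the IL-4 group was also washed or kept for the further 4 h, so an effect of LPS cannot be told apart from an effect of IL-4 removal and added culture time.

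Lipopolysaccharide (LPS), a glycolipid of the outer membrane of Gram-negative bacteria, is carried by Cd14 to the receptor Tlr4 and its partner Ly96. Tlr4 signals through the adaptor Myd88 to NF-kB and MAP kinases, which switch on cytokine genes. It also signals through Ticam1 to the factor Irf3, which switches on Ifnb1, and the secreted interferon then acts back on the cells through factors that include Stat2 and Irf9. IL-4 acts through Il4ra and the factor Stat6 and is known in mouse macrophages for inducing Retnla, Chil3, Mgl2, Mrc1 and Arg1, a state often called alternative activation. LPS-activated macrophages are known for Nos2, Tnf, Il12b and Il6.

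Library totals lay between 7924932 and 9431852 counts, and 12234 genes had enough counts to be tested. Mitochondrial transcripts took 1.07% to 1.61% of counts. The TMM factors, which correct library sizes for composition, were 1.246 and 1.172 in the IL-4 libraries and 0.866 and 0.818 in the IL-4 then LPS libraries. On the first principal component, which held 78.5% of the variance, both IL-4 then LPS libraries lay with the LPS libraries and apart from the IL-4 and control libraries. The number-1 libraries held 2936 to 4465 Xist reads and no Ddx3y reads, and the number-3 libraries the reverse, so the replicate numbers differ in the sex of the source cells. In each group the 2 libraries therefore came from animals of different sex.

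LPS changed a large part of the transcriptome of IL-4-exposed macrophages. 2537 genes rose (20.7% of those tested) and 2271 fell (18.6%) at an adjusted p below 0.05 (edgeR quasi-likelihood test, Benjamini-Hochberg adjustment). Of these, 1665 rose at least 2-fold (13.6% of genes tested) and 1470 fell at least 2-fold (12%). 544 genes rose at least 8-fold and 229 fell at least 8-fold. The median log2 fold change was 1.47 among genes that rose and -1.27 among those that fell, and -0.04 over all genes tested. All 4808 called genes moved in the same direction within replicate number 1 and within replicate number 3. The calls came from these same libraries, so this agreement is largely fixed by the calling and adds no support. Over all tested genes, called or not, the log2 fold changes of the 2 numbers correlated (Pearson r = 0.920 over 12234 genes, which are not independent replicates).

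The balance of rises and falls depended on the scaling. With library sizes alone in place of TMM factors, 1546 genes rose and 5321 fell, so 22.5% of calls were rises against 52.8%, and the median of all genes moved to -0.557. With upper-quartile factors the share of rises was 36% and that median -0.284. Under these scalings genes near the middle of the distribution can change sign. The paragraphs below give gene groups whose median turned sign or whose counts moved by over 1.5 times. Changes of 1 gene in small counts are not all given. Fewer falls were called without IL-4 replicate 1 (1315), without IL-4 replicate 3 (1505) and without IL-4 then LPS replicate 3 (1329). These are bulk libraries, in which fewer cells of a type and less RNA per cell cannot be told apart.

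**Figure D1:**
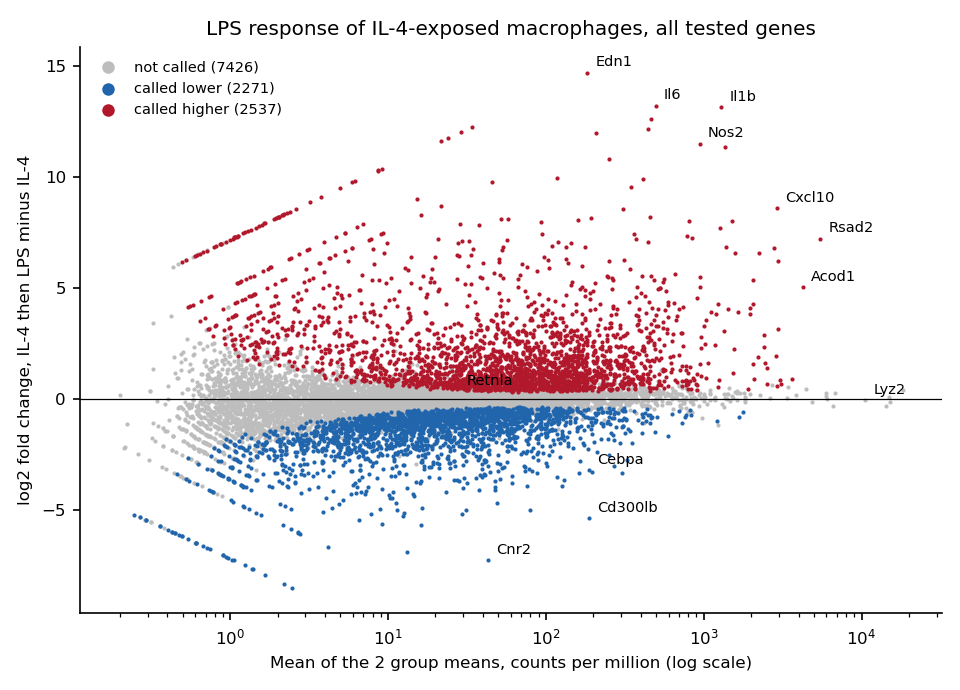
LPS response of IL-4-exposed macrophages for the 12234 tested genes. Each point is a gene, with the mean of the 2 group means in CPM (log scale) on the x axis and the log2 fold change of IL-4 then LPS over IL-4 on the y axis. Red marks the 2537 genes that rose, blue the 2271 that fell and grey the rest. The diagonal rows of points at low CPM are genes with 0 or few reads in one group, whose fitted fold changes depend on the prior count.

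Values per library are CPM (counts scaled to 1 common library size, here after TMM correction), with replicate 1 given first and replicate 3 second, and each group has 2 libraries. SE is the standard error of a log2 fold change. Among protein-coding genes with a mean of at least 10 CPM in the higher group, the 10 largest fitted rises were those of Edn1, Il6, Il1b, Il1a, Adamts4, Il12b, Il12a, Cxcl3, Cxcl9 and Shisa3. They had almost no reads before LPS, so bounds or count ratios are given in place of fitted values where a group held 3 reads or fewer. Edn1, the precursor of the vasoconstrictor peptide endothelin-1, had no read in either IL-4 library and 441 and 292 CPM in the IL-4 then LPS libraries. This is at least 2684-fold higher, taking 3 reads over both IL-4 libraries as the limit that a count of 0 allows. Adamts4, a secreted aggrecan-cleaving protease, also had no read before LPS and reached 82.8 and 53.7 CPM, at least 499.7-fold higher. Shisa3, a membrane protein known to restrain Wnt and FGF signalling, went from 0 reads to 39.8 and 46.5 CPM, at least 321.1-fold higher. In both replicate numbers these 3 genes were high after LPS and without a read before it. Altogether 63 tested genes had no read in either IL-4 library, of which 54 were called higher after LPS. A gene without a read before LPS could not fall, and it passed the count filter through other groups. This count is therefore largely fixed in advance and adds no support.

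Large falls were fewer than large rises: 54 genes fell at least 32-fold and 223 rose at least 32-fold. The 10 largest falls were those of Cnr2, Plekhg3, Foxred2, Gpr183, Thbd, Cd300lb, Engase, Lyl1, Lpar5 and Mrgpre. Cd300lb, an activating receptor of the CD300 family on myeloid cells, was the most strongly expressed of them in CPM, at 389.7 and 344 CPM in the IL-4 libraries. It held 9.19 and 8.43 CPM in the IL-4 then LPS libraries, a log2 fold change of -5.38 (SE 0.17, edgeR adjusted p = 5.13e-06). Lyl1, a basic helix-loop-helix factor of blood progenitors, went from 54.1 and 61.01 CPM to 1.17 and 1.95 CPM. Thbd, the thrombin-binding anticoagulant thrombomodulin, went from 16.96 and 8.61 CPM to 0.438 and 0.1298 CPM. The IL-4 and IL-4 then LPS libraries did not overlap for any of these 10 genes, which follows from choosing the largest falls in these libraries. In the opposite extreme, 41 tested genes had no read in either IL-4 then LPS library and 33 of them were called lower. The best covered of these was Angptl4, a lipoprotein lipase inhibitor, with 3.84 and 6.07 CPM before LPS, a fall of at least 24.0-fold. The 41 genes could not rise and passed the count filter through other groups, so the count of 33 is largely fixed in advance.

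Abundance per transcript length (TPM, a length-corrected share of the library, from the deposited gene lengths) shows which induced genes became abundant. Ccl3 ranked 7th among protein-coding genes after LPS, at 10084 and 9720.1 TPM against 46.9 and 57.5 TPM before it. Acod1, Ccl5, Cxcl10 and Rsad2 ranked 10th, 11th, 13th and 14th by mean TPM after LPS, and none of them was among the 15 most abundant in the IL-4 libraries. The genes ranked 1st and 2nd were the same before and after LPS: Fth1, the heavy chain of the iron store ferritin, and Lyz2, lysozyme.

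**Figure D2:**
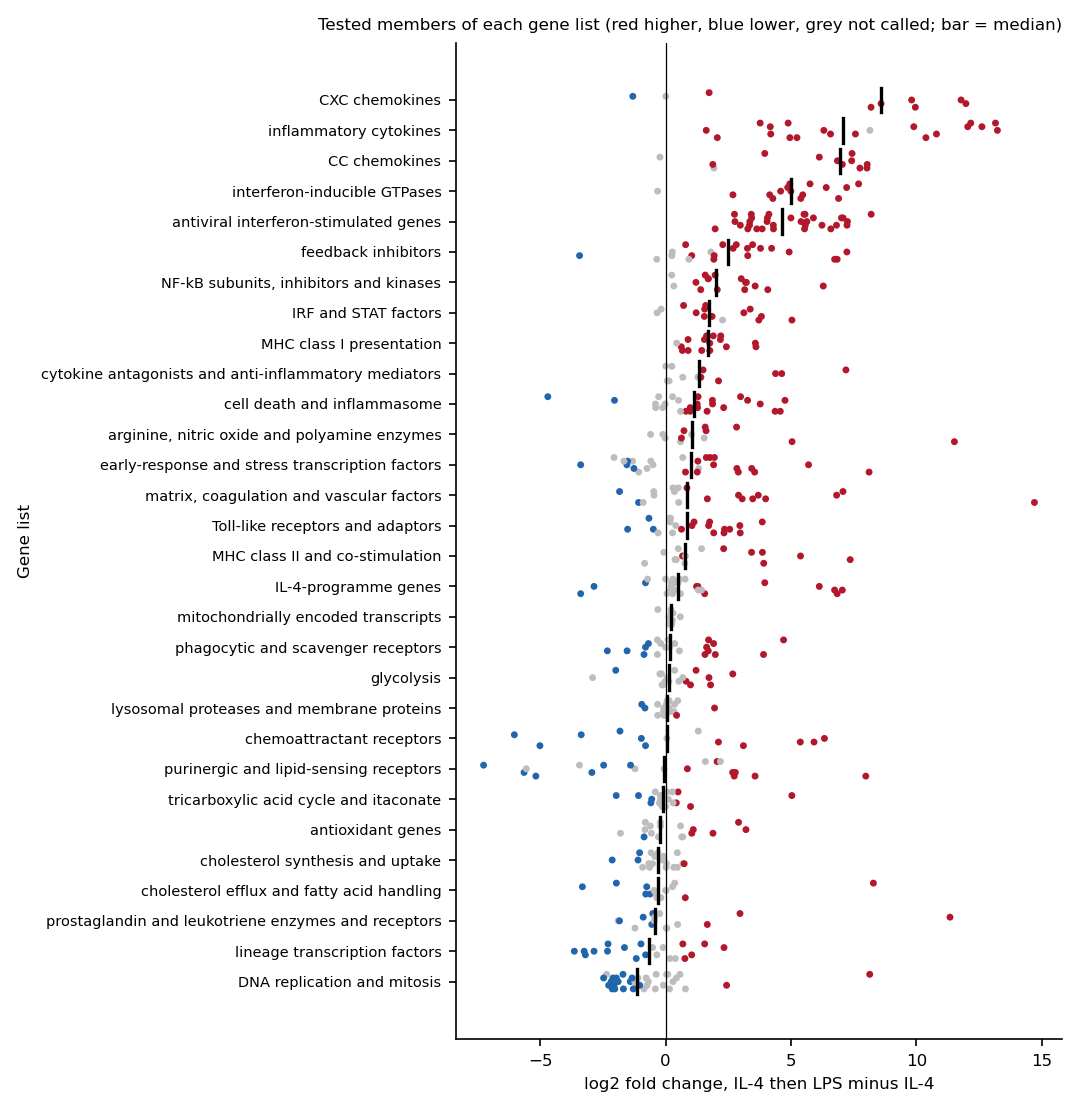
Log2 fold change of IL-4 then LPS over IL-4 (x axis) for the tested members of 30 gene lists (y axis), ordered by the list median (black bar). Red points rose, blue points fell and grey points were not called. Over all tested genes, 20.7% rose and 18.6% fell. Chemokine, cytokine and interferon lists lie far to the right, and the lowest median, -1.13, is that of DNA replication and mitosis.

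Inflammatory cytokines rose almost without exception: 19 of 20 tested members rose and 0 fell, with a median log2 fold change of 7.07 (5.77 with genes of 3 or fewer reads in a group set at their bound or ratio). Il6, the acute-phase and B-cell cytokine, held 0.179 and 0 CPM in the IL-4 libraries and 964 and 1025 CPM in the IL-4 then LPS libraries. Counted over both libraries this is a ratio of 11080 (95% counting interval 3066 to 91480). Il1b and Il1a, the precursors of the 2 IL-1 cytokines, also came from near 0. Il1b went from 0.179 and 0.363 CPM to 3395 and 1766 CPM (log2 fold change 13.15, SE 0.65, edgeR adjusted p = 1.25e-05). Il1a went from 0 and 0.272 CPM to 1210.4 and 652 CPM. For both IL-1 genes, the replicate 1 library was the higher after LPS.

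The subunits of the IL-12 family behaved alike in direction. Il12b, the shared p40 chain of IL-12 and IL-23, went from 0.0893 and 0.272 CPM to 524 and 1256 CPM (log2 fold change 12.17, SE 0.92). Il12a, the p35 chain of IL-12, went from no read to 36.9 and 79.02 CPM, at least 438.7-fold higher. After LPS the replicate 3 library was the higher for both chains, the reverse of Il1b and Il1a. Tnf, the early secreted cytokine of activated macrophages, was already present before LPS, at 10.98 and 55.03 CPM. It reached 2439.7 and 3857 CPM, a log2 fold change of 6.58 (SE 1.07, edgeR adjusted p = 0.0022). Il19, an IL-10-family cytokine, was the member that was not called: it had no read before LPS and 7.58 and 0.2595 CPM after it.

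Anti-inflammatory mediators were mixed: 6 of 12 tested members rose, 0 fell, and the median log2 fold change was 1.35. Inhba, the activin A subunit, rose from 1.07 and 0.453 CPM to 101 and 126 CPM (log2 fold change 7.19, SE 0.30, edgeR adjusted p = 1.18e-05). Il10, the main deactivating cytokine of macrophages, held 0.179 and 0.181 CPM before LPS and 7.73 and 1.95 CPM after it. Its libraries did not overlap, but its call (log2 fold change 4.63, SE 1.29) was lost when either IL-4 library or IL-4 then LPS replicate 1 was left out (adjusted p from 0.00479 to 0.138 over the 8 fits). Il1rn, the IL-1 receptor antagonist, rose from 37.8 and 44.7 CPM to 1148 and 575 CPM, and Il18bp, which binds and neutralises IL-18, from 11.5 and 12.3 CPM to 49.6 and 53.5 CPM. Lgals3, Anxa1 and Tgfb1 were abundant in all 4 libraries and were not called, with log2 fold changes of 0.01, 0.14 and 0.07. With library sizes alone, 1 member of this list was called lower, and that member was Anxa1, at -0.38.

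CC chemokines, which draw in monocytes, T cells and dendritic cells, rose in 10 of 12 tested members and fell in 0 (median log2 fold change 6.95). With library sizes alone 1 member was called lower. Ccl4 rose from 6.52 and 5.62 CPM to 1900.4 and 1297 CPM, and Ccl3 from 10.1 and 13.1 CPM to 2966 and 3080.5 CPM. These monocyte and T-cell attractants had log2 fold changes of 8.04 (SE 0.34) and 8.03 (SE 0.38). Ccl7, a monocyte chemoattractant acting on Ccr2, rose from 1.52 and 0.635 CPM to 255 and 123 CPM. Ccl5, a T-cell attractant, rose from 7.86 and 39.5 CPM to 2233 and 3233 CPM (log2 fold change 6.85, SE 0.83). Before LPS the replicate 3 library held the higher Ccl5 value, yet both stayed far under the values after LPS. Ccl12, near 0 before LPS, reached 17.5 and 7.79 CPM, a count ratio of 274.8 (interval 48.7 to 10910). Ccl6 (312 and 322 CPM before and 224 and 318 CPM after) and Ccl8 (0.625 and 0.816 CPM and 3.5004 and 2.08 CPM) were not called.

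CXC chemokines rose in 7 of 9 tested members and fell in 1 (median log2 fold change 8.59). The neutrophil-attracting Cxcl3 and Cxcl1 and the interferon-inducible T-cell attractants Cxcl9 and Cxcl11 had the largest rises. The deposited annotation marks Cxcl11 as a polymorphic pseudogene, so its reads do not show that a functional chemokine was made. Cxcl3 went from 0 and 0.181 CPM to 397 and 436 CPM, a count ratio of 4643 (interval 1285 to 38350). Cxcl9 went from no read to 54.1 and 42.4 CPM, at least 355.2-fold higher. Cxcl10, of the same interferon-inducible group, went from 4.999 and 25.02 CPM to 6340.4 and 5236 CPM (log2 fold change 8.59, SE 1.01, edgeR adjusted p = 4.18e-04). Cxcl11 went from no read to 21.4 and 3.37 CPM, at least 88.0-fold higher, and its call was lost when either IL-4 library or IL-4 then LPS replicate 1 was left out (adjusted p from 0.00761 to 0.0629 over the 8 fits). Cxcl14, expressed by many epithelia and by macrophages, was the member called lower, from 5.98 and 9.16 CPM to 2.04 and 4.02 CPM. That call was lost when either control library, either LPS library, either IL-4 library or IL-4 then LPS replicate 1 was left out (adjusted p from 0.0418 to 0.229 over the 8 fits), and also in a fit of the 4 libraries only (adjusted p up to 0.0598). Pf4, platelet factor 4, was not called (log2 fold change 0.01).

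**Figure D3:**
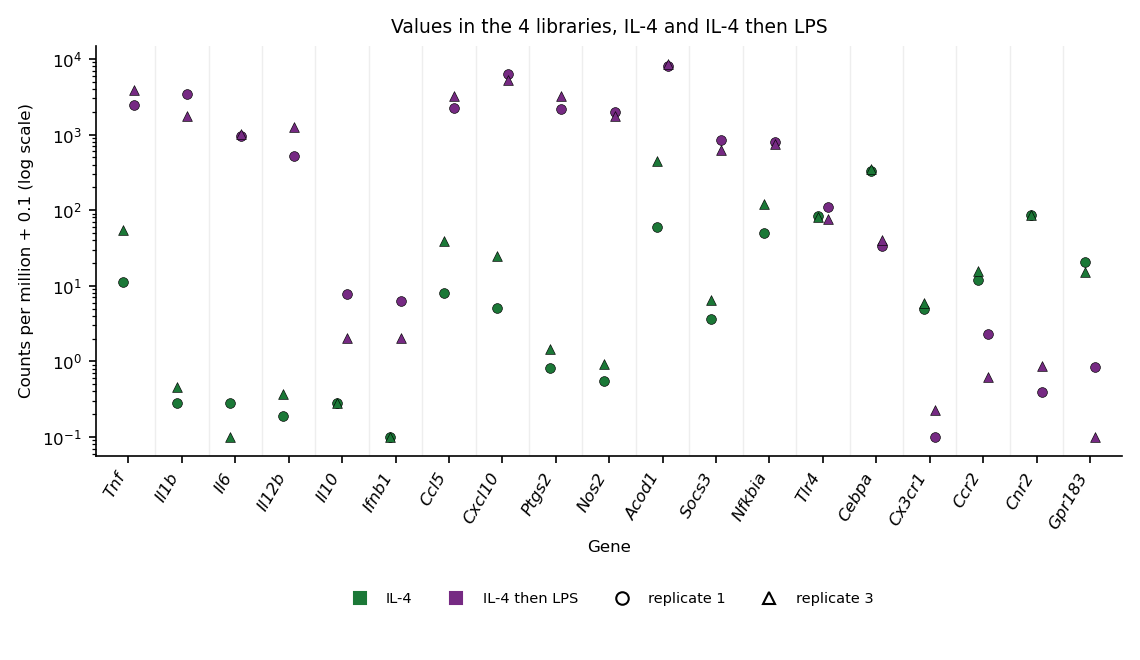
CPM plus 0.1 (log scale) of 19 genes in the 4 libraries, with IL-4 in green, IL-4 then LPS in purple, circles for replicate 1 and triangles for replicate 3. The groups do not overlap for any of the 19 genes other than Tlr4. These genes were chosen with earlier results of these data known, so this adds no support. Before LPS, the replicate 3 triangle lies above the circle for Tnf, Ccl5, Cxcl10, Acod1 and Nfkbia.

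Receptors for chemoattractants moved in both directions: 5 of 13 rose and 6 fell, against 20.7% and 18.6% of all tested genes, and the median was 0.05. The median turned negative with library sizes alone (-0.467) and with upper-quartile factors (-0.193), but the counts stayed at 5 and 6. The formyl peptide receptors Fpr2 and Fpr1, which sense bacterial and mitochondrial peptides, rose. Fpr2 went from 0 and 2.45 CPM to 65.6 and 133 CPM, and Fpr1 from 0 and 0.816 CPM to 14.1 and 36.3 CPM, although the Fpr1 call was lost when IL-4 replicate 1 was left out (adjusted p from 0.0055 to 0.0602 over the 8 fits). Ccrl2, a non-signalling chemerin-binding receptor, rose from 12.9 and 33.1 CPM to 794 and 1107 CPM (log2 fold change 5.37, SE 0.51). Ccr7, the lymph-node homing receptor, stayed low at 1.75 and 1.56 CPM after LPS, and its call was lost when either IL-4 library or either IL-4 then LPS library was left out (adjusted p from 0.0342 to 0.153 over the 8 fits).

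The receptors that fell included those of monocyte trafficking. Cxcr4, the receptor for the marrow-retention chemokine Cxcl12, went from 165 and 145 CPM to 4.67 and 4.93 CPM (log2 fold change -5.01, SE 0.27, edgeR adjusted p = 1.55e-05). Ccr2, the receptor through which monocytes leave marrow and enter inflamed tissue, went from 11.9 and 15.6 CPM to 2.19 and 0.519 CPM (log2 fold change -3.36, SE 0.52). Cx3cr1, the fractalkine receptor, went from 4.82 and 5.89 CPM to 0 and 0.1298 CPM, a count ratio of 77.95 in favour of the IL-4 libraries (interval 13.7 to 3104). Thus Ccr2 fell in the same libraries in which its ligands Ccl2, Ccl7 and Ccl12 rose. Without IL-4 then LPS replicate 3 the number of receptors called lower was 3, and without IL-4 replicate 1 the number called higher was 3. Cmklr1 and Cxcr3 were not called (log2 fold changes 0.05 and 1.30).

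Of 22 tested Toll-like receptors and adaptors, 12 rose and 3 fell (median log2 fold change 0.84, and 0.32 with library sizes alone, where 9 rose and 12 of 22 had a positive log2 fold change against 18). Without IL-4 replicate 3, 1 fell. Tlr4 itself was not called: it held 83.01 and 81.05 CPM before LPS and 112 and 77.1 CPM after it (log2 fold change 0.20, SE 0.19, edgeR adjusted p = 0.44). Its groups overlapped. Cd14, the co-receptor that hands LPS to Tlr4, rose from 171 and 155 CPM to 1210.5 and 1349 CPM (log2 fold change 2.98, SE 0.19, edgeR adjusted p = 2.81e-05). The largest rise was that of Tlr3, the endosomal sensor of double-stranded RNA, from 12.2 and 13.3 CPM to 212 and 158 CPM. Tlr2, the lipoprotein sensor, rose from 73.6 and 259 CPM to 1099 and 1487 CPM, and Myd88, the adaptor shared by most of these receptors, from 46.6 and 59.1 CPM to 291 and 332 CPM.

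Tlr13, the sensor of bacterial ribosomal RNA, fell from 497 and 443 CPM to 182 and 147 CPM (log2 fold change -1.51, SE 0.16). Irak4 and Irak1, the kinases that act next to Myd88, had smaller falls of -0.66 and -0.49 on the log2 scale. The Irak4 call was lost when IL-4 replicate 3 was left out (adjusted p from 0.0107 to 0.0502 over the 8 fits). The Irak1 call was lost when either IL-4 library or IL-4 then LPS replicate 3 was left out (adjusted p from 0.0169 to 0.0698 over the 8 fits). Without IL-4 replicate 3, Tlr13 alone kept a call among the 3 falls. Tollip and Traf3 were not called, with log2 fold changes of 0.17 and -0.30.

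Genes of the NF-kB system rose together, with 14 of 16 tested members higher, 0 lower and a median log2 fold change of 2.02. The inhibitors and atypical inhibitors led. Nfkbiz, the nuclear regulator IkB-zeta needed for Il6 and Il12b transcription, rose from 2.14 and 13.8 CPM to 597 and 646 CPM (log2 fold change 6.29, SE 0.84, edgeR adjusted p = 8.06e-04). Nfkbie, IkB-epsilon, rose from 12.2 and 50.7 CPM to 493 and 567 CPM. Nfkbia, the classical inhibitor IkB-alpha, rose from 49.01 and 121 CPM to 786 and 760.3 CPM (log2 fold change 3.19, SE 0.48). For all 3 inhibitors the replicate 3 library was the higher one before LPS, and the 2 libraries after LPS lay close together. Among the DNA-binding subunits, Nfkb2 rose from 72.5 and 136 CPM to 1051 and 1428 CPM and Rel from 46.1 and 51.2 CPM to 497 and 410.4 CPM. Ikbkg and Chuk, parts of the kinase complex that marks the inhibitors for destruction, were not called (log2 fold changes 0.25 and 0.33). The list kept 14 rises with library sizes alone.

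Other feedback inhibitors rose in 16 of 22 tested members and fell in 1 (median log2 fold change 2.49). Socs3, which blocks receptors that signal through Stat3, rose from 3.48 and 6.35 CPM to 845 and 631 CPM (log2 fold change 7.23, SE 0.53, edgeR adjusted p = 4.41e-05). Socs1, which blocks Jak kinases used by the interferon and IL-4 receptors, rose from 0.982 and 3.63 CPM to 293 and 237 CPM (log2 fold change 6.84, SE 0.49). Cish, a Stat5-inducible relative of these, rose from 0.268 and 0.997 CPM to 81.4 and 56.3 CPM. Traf1, an adaptor of TNF receptors, rose from 9.02 and 13.5 CPM to 312 and 374 CPM. The 1 member that fell was Zfp36l1, an RNA-binding protein that promotes mRNA decay, from 5.27 and 5.44 CPM to 0.875 and 0.1298 CPM. Dusp1, the MAP kinase phosphatase, had scattered values of 37.3 and 20.8 CPM before and 56.9 and 13.5 CPM after LPS and was not called, nor were Dusp4 and Tnip2.

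In the interferon arm, all 32 tested antiviral interferon-stimulated genes rose, against 20.7% of all genes, with a median log2 fold change of 4.65 and a lowest value of 1.98 for Bst2 (tetherin, named after its value was seen). All 32 stayed called with library sizes alone and in each of the 8 fits that left out 1 library. Ifnb1, interferon beta itself, had no read in either IL-4 library and 6.13 and 1.95 CPM after LPS, at least 29.0-fold higher. Rsad2 (viperin, an enzyme that makes a chain-terminating nucleotide) rose from 29.99 and 115 CPM to 12345 and 9422 CPM (log2 fold change 7.23, SE 0.84, edgeR adjusted p = 4.08e-04). Mx1, a GTPase that traps viral nucleoproteins, rose from 7.23 and 14.9 CPM to 2078 and 1290.0 CPM, and Oasl1 from 3.39 and 9.61 CPM to 919.9 and 838 CPM. The Ifit3 and Ifit3b genes and the Oas genes are near-identical copies, and the labels do not state how reads shared between them were split.

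Interferon-inducible GTPases, which attack the vacuoles of intracellular bacteria and parasites, rose in 14 of 15 tested members and fell in 0 (median log2 fold change 4.995). Gbp5 rose from 3.303 and 21.1 CPM to 2519 and 2544 CPM (log2 fold change 7.70, SE 1.01, edgeR adjusted p = 7.45e-04). Iigp1 rose from 0.803 and 2.81 CPM to 248 and 185 CPM, and Gbp4 from 0.0893 and 0.816 CPM to 53.8 and 24.9 CPM. Tgtp1, which shares sequence with Tgtp2 so that its reads are uncertain, had a count ratio of 170.2 (interval 46.6 to 1414). Gbp8 was not called, at 1.43 and 0.635 CPM before and 0.875 and 0.778 CPM after LPS.

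Factors that carry the interferon signal rose as well: 11 of 14 tested IRF and STAT genes rose and 0 fell (median log2 fold change 1.73). Irf7, the factor that amplifies interferon production, rose from 16.3 and 28.6 CPM to 744 and 734 CPM (log2 fold change 5.04, SE 0.32, edgeR adjusted p = 2.46e-05). Irf1 rose from 58.2 and 111 CPM to 1058 and 1167 CPM, Stat2 from 69.6 and 93.7 CPM to 825 and 869 CPM and Stat5a from 38.5 and 35.1 CPM to 558 and 482 CPM. Stat6, the factor of the IL-4 receptor, and Irf3, the factor directly activated by Tlr4 signalling, were not called, with log2 fold changes of -0.18 and -0.34. With library sizes alone or upper-quartile factors, 2 members were called lower. Both times these were Stat6 and Irf3, at -0.70 and -0.87 with library sizes alone and -0.42 and -0.59 with upper-quartile factors.

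The 2 replicate numbers differed before LPS in the interferon genes. Of the 32 antiviral genes, 14 were at least 2-fold higher in IL-4 replicate 3 than in IL-4 replicate 1 and 0 were at least 2-fold lower (on CPM plus 0.5). The median log2 difference of replicate 3 over replicate 1 was 0.872 in the IL-4 libraries and -0.0794 after LPS. Among the 15 GTPases, 7 were at least 2-fold higher in IL-4 replicate 3, with medians of 0.846 before and 0.0568 after LPS. Over all 12234 genes the same medians were -0.00109 and -0.008. The control libraries showed a like difference, with a median of 0.736 for the antiviral genes. So the replicate 3 cells started from higher interferon-gene levels with or without IL-4, and 30 of the 32 antiviral genes had the larger fold change in replicate 1. The replicate numbers differ in animal and in sex, which cannot be told apart here.

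Promoter sequences show short motifs of the known factors at some of these genes. RefSeq promoters on the GRCm38.p6 build were matched by symbol to 9129 of the 12234 tested genes, and the 250 bases before the start site were searched on both strands. The motifs were the NF-kB consensus, the core of the interferon-stimulated response element (ISRE, GAAANNGAAA), a Stat6-type site (TTCNNNNGAA) and an AP-1 site (TGANTCA). A match describes letters and does not show binding. Below, each is read 5′ to 3′ toward the start site, with all motif matches in capitals. They were chosen as a gene with both NF-kB and ISRE matches (Cxcl10), an NF-kB inhibitor (Nfkbia), a many-copy ISRE (Isg15), a GTPase (Gbp2), and 2 IL-4-programme genes with a Stat6-type match, of which LPS raised Ccl17 and left Retnla uncalled.
Cxcl10: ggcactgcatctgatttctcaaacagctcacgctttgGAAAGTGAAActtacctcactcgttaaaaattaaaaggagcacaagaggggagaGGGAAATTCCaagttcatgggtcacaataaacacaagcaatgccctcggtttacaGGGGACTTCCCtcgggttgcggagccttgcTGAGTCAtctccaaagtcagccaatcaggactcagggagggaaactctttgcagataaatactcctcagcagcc
Nfkbia: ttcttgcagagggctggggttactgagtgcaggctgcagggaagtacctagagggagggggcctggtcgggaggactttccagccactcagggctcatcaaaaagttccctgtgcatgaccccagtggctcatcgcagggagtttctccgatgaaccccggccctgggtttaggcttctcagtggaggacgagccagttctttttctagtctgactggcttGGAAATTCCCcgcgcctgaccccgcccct
Isg15: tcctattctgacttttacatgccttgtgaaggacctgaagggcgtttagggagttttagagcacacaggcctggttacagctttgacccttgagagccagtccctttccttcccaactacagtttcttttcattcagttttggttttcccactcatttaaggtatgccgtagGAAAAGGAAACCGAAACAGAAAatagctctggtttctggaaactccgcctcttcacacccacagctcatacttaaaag
Gbp2: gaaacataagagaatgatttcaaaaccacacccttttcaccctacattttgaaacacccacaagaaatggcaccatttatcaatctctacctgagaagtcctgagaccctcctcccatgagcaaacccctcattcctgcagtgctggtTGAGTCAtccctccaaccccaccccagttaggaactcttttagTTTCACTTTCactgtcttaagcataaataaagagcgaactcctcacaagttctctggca
Ccl17: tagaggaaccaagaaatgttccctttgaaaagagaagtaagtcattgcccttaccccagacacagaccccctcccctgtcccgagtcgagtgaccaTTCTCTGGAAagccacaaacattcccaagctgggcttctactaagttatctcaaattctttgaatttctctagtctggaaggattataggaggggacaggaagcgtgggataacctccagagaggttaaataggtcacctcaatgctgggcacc
Retnla: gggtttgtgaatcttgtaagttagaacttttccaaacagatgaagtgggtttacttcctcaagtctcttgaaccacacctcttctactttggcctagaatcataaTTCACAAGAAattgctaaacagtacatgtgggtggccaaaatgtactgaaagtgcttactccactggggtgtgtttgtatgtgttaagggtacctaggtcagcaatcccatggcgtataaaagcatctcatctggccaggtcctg

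The Cxcl10 window (chr5:92348890-92349139, minus strand) held an ISRE match starting 213 bases before the start site. It also held NF-kB matches at 159, 104 and 103 bases, the last 2 overlapping, and an AP-1 match at 74 bases. Nfkbia (chr12:55492648-55492897, minus strand) held 1 NF-kB match, 29 bases before the start. Isg15 (chr4:156200819-156201068, minus strand) held 3 overlapping ISRE matches, and Gbp2 (chr3:142620413-142620662, plus strand) 1 ISRE and 1 AP-1 match. In the capitals of Isg15 the repeats run into each other. Ccl17 (chr8:94810203-94810452, plus strand) and Retnla (chr16:48842359-48842608, plus strand) each held 1 Stat6-type match and no match to the other 3 motifs.

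An ISRE match was present in 10.9% of 650 promoters of genes that rose at least 4-fold, 0.964% of 415 promoters of genes that fell at least 4-fold, and 2.99% of all 9129. It was in 10 of 10 GTPase promoters and 9 of 24 antiviral-gene promoters. The NF-kB consensus was present in 13.4%, 7.95% and 8.82% of the same 3 sets, and the AP-1 site in 8.92%, 4.1% and 4.2%. Stat6-type sites were in 6.46%, 4.34% and 4.72%. These shares are descriptions without a test.

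Early-response and stress-related transcription factors rose in 13 of 26 tested members and fell in 4 (median log2 fold change 1.03). Over all tested genes 20.7% rose and 18.6% fell, so the count of falls is no higher than the background. Nr4a3, an orphan nuclear receptor, rose from 0.625 and 0.0907 CPM to 127 and 79.8 CPM (log2 fold change 8.11, SE 0.71, edgeR adjusted p = 1.00e-04). Batf2, an interferon-inducible AP-1 relative, rose from 1.34 and 2.18 CPM to 89.4 and 94.5 CPM, and Batf and Cebpd rose by 3.43 and 3.55 on the log2 scale. Myc and Jun, both immediate-early genes in other settings, fell. Jun went from 95.3 and 84.5 CPM to 31.9 and 31.01 CPM and Myc from 12.1 and 13.8 CPM to 3.5004 and 5.32 CPM. Egr2, a factor induced by IL-4 in macrophages, fell from 67.4 and 81.3 CPM to 6.27 and 7.91 CPM (log2 fold change -3.38, SE 0.38). Klf10 fell by 1.26 on the log2 scale, with a call that was lost when IL-4 replicate 1 or IL-4 then LPS replicate 3 was left out (adjusted p from 0.00985 to 0.0779 over the 8 fits). With all genes of at least 1 read fitted, 8 members fell. Klf2, Fos and Fosl2 were not called.

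Of 20 tested lineage transcription factors 10 fell and 5 rose, against 18.6% and 20.7% of all tested genes (median log2 fold change -0.66). Cebpa, needed to form the myeloid lineage, fell from 328 and 351 CPM to 33.3 and 40.7 CPM (log2 fold change -3.20, SE 0.21, edgeR adjusted p = 2.74e-05). Tfeb, the regulator of lysosome biogenesis, fell from 85.96 and 94.8 CPM to 5.105 and 13.8 CPM, and its relative Tfec rose from 29.2 and 26.3 CPM to 162 and 118 CPM. Pparg, the fatty-acid-sensing receptor that IL-4 induces, fell from 34.4 and 33.5 CPM to 5.396 and 4.02 CPM. Irf8 and Maf rose by 1.56 and 1.04 on the log2 scale. Mitf rose by 0.77, a call that was lost when IL-4 replicate 1 or either IL-4 then LPS library was left out (adjusted p from 0.0152 to 0.186 over the 8 fits), and also with library sizes alone and with upper-quartile factors (adjusted p up to 0.324). Spi1 (PU.1), the central macrophage factor, was not called (394 and 505 CPM before and 489 and 689.8 CPM after LPS), nor were Id2 and Mef2a. Under library-size scaling 3 members rose and 13 fell.

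By the family annotation in the deposited table, 791 transcription factor genes were tested. Of these 155 rose and 165 fell, near the 20.7% and 18.6% of all tested genes. Of 43 bZIP genes 15 rose and 6 fell, while of 40 bHLH genes 10 rose and 16 fell. Of 10 E2F genes 1 rose and 6 fell. Among 381 C2H2 zinc-finger genes 51 rose and 61 fell. These families are descriptions by count, without a test of one against another.

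Genes that IL-4 is known to induce did not move as 1 block. Of 27 tested IL-4-programme genes 8 rose, 3 fell and 16 were not called. Over all tested genes 20.7% rose and 18.6% fell, so these counts are near the background. The median of 0.50 moved to -0.03 with library sizes alone, where 6 rose and 5 fell. The rises numbered 5 without IL-4 replicate 3 or IL-4 then LPS replicate 1. Retnla, a secreted resistin-like protein, was not called, with 23.5 and 25.7 CPM before LPS and 27.4 and 34.8 CPM after it (log2 fold change 0.34, SE 0.21, edgeR adjusted p = 0.259). No control or LPS-only library held a Retnla read. Chil3, a chitinase-like lectin, held 84.9 and 132 CPM and 111 and 153 CPM (log2 fold change 0.28, SE 0.25), against 2.51 and 1.68 CPM in control and 1.3999 and 1.796 CPM with LPS alone. Mgl2, a galactose-binding lectin, held 112 and 55.8 CPM and 129.8 and 67.6 CPM, against 1.82 and 1.29 CPM and 1.54 and 0.553 CPM. For these 3 genes all 4 IL-4-exposed libraries lay above all 4 others. Chil3 has near-identical copies and Mgl2 a close relative in Clec10a, so their counts carry that uncertainty.

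Mrc1, the mannose receptor, Itgax (CD11c), Cd36, a fatty acid and lipoprotein scavenger receptor, and Tgm2, transglutaminase 2, were not called either. Itgax held 437 and 454 CPM before and 598 and 549 CPM after LPS (log2 fold change 0.36, SE 0.15), against 113 and 108 CPM in control. Cd36 held 1481 and 1349 CPM and 1417 and 1408 CPM, with a log2 fold change of -0.00 (SE 0.14). Mrc1 was more variable, at 172 and 96.5 CPM before and 270.3 and 123 CPM after LPS (SE 0.55), with replicate 1 the higher in both groups. Arg1, arginase 1, stayed low, at 3.57 and 1.18 CPM and 5.69 and 1.56 CPM (log2 fold change 0.59, SE 0.81). Il4ra, the IL-4 receptor chain, had 94.4 and 69.8 CPM and 194 and 87.8 CPM and was not called. A p that misses the threshold does not show that these levels were equal. The standard errors allow changes of moderate size for Mrc1, Arg1 and Il4ra.

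4 chemokine and signalling genes of the IL-4 list rose steeply. Ccl22, which attracts Ccr4-bearing T cells, rose from 4.82 and 2.901 CPM to 279.7 and 263 CPM (log2 fold change 6.13, SE 0.27, edgeR adjusted p = 1.18e-05). In cells without IL-4 it stood at 0.173 and 0.495 CPM in control and 36.1 and 37.9 CPM with LPS. Ccl17, the other Ccr4 ligand, held 0 and 0.272 CPM before LPS and 21.1 and 18.2 CPM after it, a count ratio of 145.0 (interval 49.1 to 707). Without IL-4 its values were 0.173 and 0 CPM in control and 1.68 and 2.21 CPM with LPS. Both ligands were thus highest in the 2 IL-4 then LPS libraries. Socs1 and Cish, given above, were the other 2. Ccl24, an eosinophil attractant, reached 6.42 and 3.76 CPM from 0.357 and 0.272 CPM, but its call was lost when either IL-4 library or either IL-4 then LPS library was left out (adjusted p from 0.00512 to 0.0995 over the 8 fits).

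The list members that fell were Egr2 and Pparg, given above, and Clec7a, the beta-glucan receptor Dectin-1. Clec7a went from 674 and 606 CPM to 424 and 312 CPM (log2 fold change -0.80, SE 0.23), and its call was lost when either IL-4 library or IL-4 then LPS replicate 3 was left out (adjusted p from 0.022 to 0.167 over the 8 fits). Without IL-4 replicate 3 and without IL-4 then LPS replicate 1 the number of rises in this list was 5 in place of 8.

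**Figure D4:**
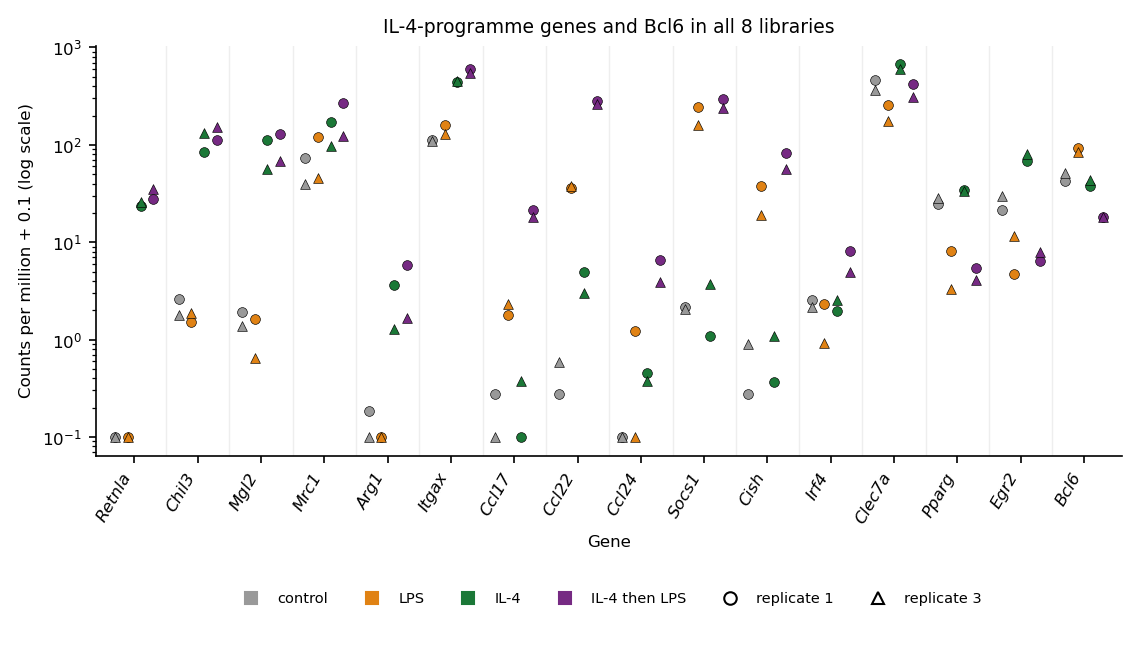
CPM plus 0.1 (log scale) of 15 IL-4-programme genes and Bcl6 in all 8 libraries, with control grey, LPS orange, IL-4 green, IL-4 then LPS purple, circles for replicate 1 and triangles for replicate 3. Retnla, Chil3 and Mgl2 lie above both groups without IL-4 before and after LPS, Ccl17 and Ccl22 are highest in IL-4 then LPS, and Bcl6 is lowest there.

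Of 13 tested enzymes and transporters of arginine, nitric oxide and polyamines 7 rose and 0 fell, with a median log2 fold change of 1.04. Nos2, inducible nitric oxide synthase, went from 0.446 and 0.816 CPM to 1987 and 1779 CPM (log2 fold change 11.51, SE 0.37, edgeR adjusted p = 5.13e-06). Slc7a2, the arginine transporter that feeds it, rose from 50.9 and 61.01 CPM to 1928 and 1762 CPM. Gch1, which makes the Nos2 cofactor tetrahydrobiopterin, rose from 29.99 and 47.3 CPM to 226 and 324 CPM. Sat1, which acetylates polyamines for export, rose from 169 and 175 CPM to 505 and 549.8 CPM. Odc1, the first enzyme of polyamine synthesis, and the urea-cycle relatives Oat and Asl were not called. The counts were 5 rises and 3 falls under library-size scaling.

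In glycolysis, 6 of 19 tested genes rose and 1 fell, against 20.7% and 18.6% of all tested genes. The median of 0.13 turned to -0.40 with library sizes alone and -0.12 with upper-quartile factors, where 2 members were called lower. All 6 rises were in hexokinases, phosphofructokinases or Pfkfb3, which act at the entry of the pathway. Hk2 (hexokinase 2) rose from 56.6 and 61.01 CPM to 226 and 182 CPM, Hk1 by 1.21 on the log2 scale, and Pfkp, a phosphofructokinase, from 127 and 126 CPM to 442 and 397 CPM (log2 fold change 1.73, SE 0.13). Pfkfb3, which makes the activator of phosphofructokinase, went from 44.5 and 27.2 CPM to 328 and 131 CPM, with a call that was lost when either IL-4 library or IL-4 then LPS replicate 1 was left out (adjusted p from 0.0059 to 0.0903 over the 8 fits). Its relative Pfkfb4 fell from 68.6 and 58.9 CPM to 18.2 and 14.01 CPM (log2 fold change -1.99, SE 0.18). The abundant lower-pathway enzymes Pkm, Aldoa and Ldha were not called, with log2 fold changes of -0.14, -0.10 and 0.07. Library-size scaling gave 9 members lower, and without IL-4 replicate 3 the number was 2.

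Around the tricarboxylic acid cycle, 4 of 24 genes rose and 4 fell, shares no higher than the 20.7% and 18.6% of all tested genes. Acod1, which turns the cycle intermediate cis-aconitate into itaconate, rose from 59.7 and 445 CPM to 7997 and 8536 CPM (log2 fold change 5.03, SE 1.01, edgeR adjusted p = 0.00596). Before LPS, IL-4 replicate 3 was well above replicate 1, and both were far below either library after LPS. Idh1, the cytosolic isocitrate dehydrogenase, fell from 289 and 263 CPM to 85.3 and 55.9 CPM (log2 fold change -1.97, SE 0.23). Dld rose by 0.996 on the log2 scale. Leaving out any 1 of the 4 libraries of the comparison (IL-4 or IL-4 then LPS, replicate 1 or 3) reduced the counts to 2 rises and 2 falls. Cs, Dlst and Idh3g were not called in any of these fits, and in each fit 1 of Suclg2 and Aco1 was lost as well. Scaling by library size gave 2 rises and 18 falls, and upper-quartile factors 2 and 8. The abundant Sdha, Acly and Ogdh were not called, and Sdha and Ogdh were called lower with library sizes alone.

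Cholesterol synthesis and uptake genes were mostly not called: 1 of 22 rose and 3 fell, against 20.7% and 18.6% of all tested genes (median log2 fold change -0.28). Dhcr7, the last enzyme of the Kandutsch-Russell branch, fell from 40.4 and 38.3 CPM to 10.6 and 7.396 CPM (log2 fold change -2.13, SE 0.22, edgeR adjusted p = 2.15e-04). Calls for Lss and Sqle (log2 fold changes -1.10 and -1.04) were each lost without at least 2 of the libraries, which left Dhcr7 as the 1 fall without IL-4 replicate 3 or IL-4 then LPS replicate 1. Library-size scaling gave 0 rises and 11 falls, and upper-quartile factors 0 and 8. Srebf2 and Hmgcs1 were not called.

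In cholesterol efflux and fatty acid handling 2 of 16 genes rose and 5 fell, against 20.7% and 18.6% of all tested genes. With library sizes alone 1 rose, and likewise 1 with upper-quartile factors. Ch25h, which makes the antiviral oxysterol 25-hydroxycholesterol, went from 0.0893 and 0.0907 CPM to 46.7 and 18.2 CPM, a count ratio of 351.1 (interval 96.7 to 2908). Scd2, a desaturase, fell from 359 and 234 CPM to 42.7 and 16.997 CPM (log2 fold change -3.32, SE 0.44). Soat1, which esterifies cholesterol for storage, fell from 524 and 593 CPM to 151 and 136 CPM, and Plin2, a lipid-droplet coat protein, from 933 and 1006 CPM to 561 and 561 CPM. Abca1, the cholesterol exporter, and Mylip changed by 0.79 and -0.75 on the log2 scale. The Abca1 call was lost when either IL-4 library or IL-4 then LPS replicate 3 was left out (adjusted p from 0.0224 to 0.175 over the 8 fits), and also with library sizes alone and with upper-quartile factors (adjusted p up to 0.352). The Mylip call was lost when IL-4 replicate 1 or either IL-4 then LPS library was left out (adjusted p from 0.0171 to 0.173 over the 8 fits). Lpl, Apoe and Fabp5 were abundant and not called. Falls numbered 3 without IL-4 replicate 1 or either IL-4 then LPS library, 10 with library sizes alone and 9 with upper-quartile factors.

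Among cell-division genes 15 of 36 genes of DNA replication and mitosis fell and 2 rose (median log2 fold change -1.13). Kif20a, a mitotic kinesin, fell from 31.4 and 18.3 CPM to 5.105 and 5.19 CPM (log2 fold change -2.27, SE 0.32, edgeR adjusted p = 0.00113). Ccna2, cyclin A2, fell from 58.4 and 33.6 CPM to 11.5 and 9.601 CPM (log2 fold change -2.12, SE 0.36). Cenpf, a kinetochore protein, and Ccne2, cyclin E2, had log2 fold changes of -2.47 and -2.17. The Cenpf call was lost when IL-4 then LPS replicate 3 was left out (adjusted p from 0.00154 to 0.0549 over the 8 fits), and the Ccne2 call was lost when IL-4 replicate 1 or either IL-4 then LPS library was left out (adjusted p from 0.0249 to 0.185 over the 8 fits). In the IL-4 group the replicate 1 library was the higher for all 4 of these genes. The 2 genes that rose encode cyclins. Ccnd2, cyclin D2, went from 1.25 and 1.45 CPM to 431 and 337 CPM (log2 fold change 8.14, SE 0.40), and Ccne1 from 8.66 and 5.44 CPM to 33.1 and 43.1 CPM. Pcna, Mki67 and Mcm6 were not called, at log2 fold changes of 0.04, 0.43 and -0.09, with Pcna called lower with library sizes alone. The number of falls was 8 without IL-4 replicate 1 and 8 without IL-4 then LPS replicate 3. It was 24 with library sizes alone and 24 with all genes of at least 1 read fitted.

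Co-stimulatory and antigen-presentation genes were called in 1 direction only, upward. Of 15 class II and co-stimulatory genes 7 rose and 0 fell (median log2 fold change 0.79). Cd40, the receptor for T-cell help, rose from 4.55 and 14.5 CPM to 1372 and 1762 CPM (log2 fold change 7.36, SE 0.71, edgeR adjusted p = 1.56e-04). Icam1, an adhesion partner of T cells, rose from 50.9 and 143 CPM to 3521 and 4562 CPM, and Cd274 (PD-L1) from 121 and 157 CPM to 2205 and 1986 CPM. Icosl rose from 5.53 and 8.07 CPM to 69.9 and 128 CPM. The class II chains H2-Aa, H2-Ab1 and H2-Eb1 were not called, with log2 fold changes of 0.37, 0.79 and 0.43. Replicate 3 was the higher library for these 3 chains in both groups.

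Of 16 class I presentation genes 15 rose and 0 fell (median log2 fold change 1.70). Nlrc5, the class I transactivator, rose from 27.3 and 39.8 CPM to 411 and 405 CPM (log2 fold change 3.60, SE 0.24). Tap1, a chain of the peptide transporter, rose from 55.4 and 95.4 CPM to 778 and 1024 CPM. Psme2 and Psmb9, parts of the proteasome forms that make class I peptides, rose by 2.42 and 2.20 on the log2 scale. The heavy chain H2-D1 was not called (log2 fold change 0.44), and class I genes share reads with close copies. Without IL-4 replicate 1, and likewise without IL-4 then LPS replicate 3, 9 members rose.

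Phagocytic and scavenger receptors split, with 8 of 21 higher and 5 lower, against 20.7% and 18.6% of all tested genes (median log2 fold change 0.16). With library sizes alone 6 were higher and 9 lower (median -0.36), and with upper-quartile factors 7 and 7 (median -0.09). Clec4e (Mincle), the receptor for mycobacterial cord factor, rose from 78.4 and 336 CPM to 2369.6 and 3841 CPM (log2 fold change 3.90, SE 0.75, edgeR adjusted p = 0.00489). Fcgr1, the high-affinity IgG receptor, rose from 30.3 and 32.3 CPM to 134 and 102 CPM. Marco rose from 0.268 and 0.453 CPM to 6.13 and 13.2 CPM, a call that was lost when either IL-4 library or IL-4 then LPS replicate 3 was left out (adjusted p from 0.00502 to 0.0829 over the 8 fits). Mertk, which clears dying cells, rose from 19.4 and 17.7 CPM to 105 and 41.6 CPM, a call that was lost when either IL-4 library or IL-4 then LPS replicate 1 was left out (adjusted p from 0.00801 to 0.134 over the 8 fits), and also with library sizes alone (adjusted p up to 0.0579). Clec4n (Dectin-2) fell from 34.4 and 27.5 CPM to 7.88 and 13.4 CPM. The falls of Cd163 and Fcgr3 (-2.32 and -0.86 on the log2 scale) and of Clec7a were each lost without 3 of the libraries. 1 receptor was called lower without IL-4 replicate 3 or IL-4 then LPS replicate 3, 3 without IL-4 replicate 1, and 5 were called higher when either IL-4 library was left out. Cd68 and Trem2 were not called.

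Cell death and inflammasome genes rose in 16 of 26 tested members and fell in 2 (median log2 fold change 1.12). The counts were 13 and 5 with library sizes alone. Ripk2, the kinase of the Nod receptors, rose from 13.7 and 13.5 CPM to 352 and 385 CPM (log2 fold change 4.76, SE 0.15, edgeR adjusted p = 5.13e-06). Cflar (c-FLIP), a brake on caspase-8, rose from 58.9 and 87.8 CPM to 1717 and 1777 CPM. Nlrp3, the inflammasome sensor, rose from 28.6 and 33.7 CPM to 541 and 745 CPM, and Casp4, which binds cytosolic LPS, from 10.2 and 15.3 CPM to 181 and 168 CPM. The 2 falls were in BCL-2 family genes with opposite roles. Bmf, which promotes apoptosis, fell from 20.4 and 22.8 CPM to 0.438 and 1.17 CPM (log2 fold change -4.69, SE 0.36), and Bcl2, which blocks it, from 7.68 and 8.25 CPM to 2.19 and 1.69 CPM. Mcl1, Bcl2l11 and Ripk1 were not called.

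For prostaglandin and leukotriene genes 3 of 15 rose and 4 fell (median log2 fold change -0.43), against 20.7% and 18.6% of all tested genes, so the counts are near the background. The 3 that rose encode successive enzymes of prostaglandin E2 synthesis. Ptgs2 (COX-2) went from 0.714 and 1.36 CPM to 2209.5 and 3223 CPM (log2 fold change 11.34, SE 0.42, edgeR adjusted p = 1.02e-05). Ptges, the synthase that follows it, rose from 3.12 and 6.07 CPM to 43.3 and 28.8 CPM, and Pla2g4a, which frees arachidonic acid, from 24.5 and 24.1 CPM to 84.7 and 69.5 CPM. The falls were those of Ptger2, Hpgds, Alox5ap and Lta4h, between -0.51 and -1.84 on the log2 scale. None of the 4 falls was called without IL-4 replicate 1, 2 were called without IL-4 replicate 3, and 1 was called without IL-4 then LPS replicate 3. Tbxas1, Ptges3 and Ptgs1 were not called.

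Antioxidant genes rose in 5 of 17 tested members and fell in 1, against 20.7% and 18.6% of all tested genes, with a median of -0.20. Slc7a11, the cystine importer, rose from 139.5 and 76.2 CPM to 1030.4 and 959.6 CPM (log2 fold change 3.21, SE 0.52). Sod2, the mitochondrial superoxide dismutase, rose from 81.1 and 217 CPM to 992 and 1251 CPM, and Keap1 by 1.11 on the log2 scale. Prdx5 rose by 1.89, a call that was lost when either IL-4 library or IL-4 then LPS replicate 3 was left out (adjusted p from 0.0295 to 0.216 over the 8 fits), and also with library sizes alone and with upper-quartile factors (adjusted p up to 0.0666). Cat, catalase, fell by 0.86, a call that was lost when IL-4 replicate 1 or IL-4 then LPS replicate 3 was left out (adjusted p from 0.0254 to 0.185 over the 8 fits), and also in a fit of the 4 libraries only (adjusted p up to 0.0558). Hmox1, which degrades heme, was not called and differed more between replicate numbers than between groups, at 1378 and 508 CPM before and 961 and 315 CPM after LPS. Prdx1 and Srxn1 were not called. 3 members rose without IL-4 replicate 3. The median was 0.37 without IL-4 replicate 1 and 0.13 without IL-4 then LPS replicate 3, and with library sizes alone 3 rose and 5 fell. With upper-quartile factors 3 rose and 3 fell.

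Among matrix, coagulation and vascular factors 10 of 19 rose and 2 fell (median log2 fold change 0.85). Beside Edn1, Serpinb2 (PAI-2), an inhibitor of plasminogen activators, reached 10.6 and 12.7 CPM from 1 read in each library, a count ratio of 130.5 (interval 35.6 to 1087). Mmp13, a collagenase, rose from 21.5 and 15.4 CPM to 349 and 238 CPM. Plau, the protease that Serpinb2 blocks, had a log2 fold change of -1.08, a call that was lost when IL-4 replicate 3 or either IL-4 then LPS library was left out (adjusted p from 0.00544 to 0.0926 over the 8 fits). The Vegfa call (log2 fold change -1.83) was lost when IL-4 replicate 1 or IL-4 then LPS replicate 3 was left out (adjusted p from 0.00781 to 0.0845 over the 8 fits). 1 fall was called when either IL-4 library or IL-4 then LPS replicate 1 was left out, and 0 without IL-4 then LPS replicate 3. Mmp12, Timp2 and F7 were not called.

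Of 19 tested receptors for nucleotides, adenosine and lipids 7 rose and 6 fell, against 20.7% and 18.6% of all tested genes. Among these receptors were 3 of the 10 largest falls named above (Cnr2, Gpr183 and Lpar5). Cnr2, the peripheral cannabinoid receptor CB2, went from 85.4 and 86.03 CPM to 0.292 and 0.778 CPM (log2 fold change -7.25, SE 0.35, edgeR adjusted p = 1.25e-05). Gpr183, the receptor for oxysterols made downstream of Ch25h, went from 20.6 and 15.2 CPM to 0.729 and 0 CPM (log2 fold change -5.64, SE 0.73). The lysophosphatidic acid receptors Lpar5 and Lpar6 went from 15.1 and 15.4 CPM to 0.146 and 0.649 CPM and from 44.8 and 29.2 CPM to 5.396 and 4.28 CPM. In the other direction Adora2a, the adenosine receptor that restrains macrophage activation, rose from 0.179 and 1.27 CPM to 154 and 217 CPM (log2 fold change 7.98, SE 0.57). P2ry14 and P2ry13 rose from 12.9 and 16.95 CPM to 92.6 and 112 CPM and from 1.87 and 2.36 CPM to 13.6 and 14.8 CPM, and Gpr18 by 3.57 on the log2 scale. P2rx4, Gpr84 and Gpr35 were not called. The list median, -0.06, was near 0 and changed sign without IL-4 replicate 3 (0.26) or IL-4 then LPS replicate 1 (0.10).

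Lysosomal genes made up 5.08% and 5.64% of counts in the IL-4 libraries and 3.61% and 4% in the IL-4 then LPS libraries by list total, but after TMM scaling 16 of 20 were not called. Ctsc, the protease that activates granule enzymes, rose from 114 and 142 CPM to 598 and 394 CPM (log2 fold change 1.95, SE 0.27). Npc1, which exports cholesterol from lysosomes, fell from 384 and 417 CPM to 215 and 199.6 CPM (log2 fold change -0.95, SE 0.13). Lipa fell by 0.82 on the log2 scale, a call that was lost when either IL-4 library or IL-4 then LPS replicate 3 was left out (adjusted p from 0.0195 to 0.153 over the 8 fits), and Lamp2 rose by 0.44, a call that was lost in all 8 fits that left out 1 library (adjusted p from 0.0655 to 0.2 over the 8 fits), and also with library sizes alone, with upper-quartile factors, with all genes of at least 1 read fitted and in a fit of the 4 libraries only (adjusted p up to 0.6). The cathepsins Ctsb, Ctsd and Ctss were not called, at 0.08, -0.32 and 0.14. Scaled by library size, the list had 1 rise, 14 falls and a median of -0.45, against 2, 2 and 0.07 with TMM. With upper-quartile factors it had 1 rise, 4 falls and a median of -0.18. None of the 12 tested mitochondrially encoded transcripts was called (median 0.23, -0.30 with library sizes alone and -0.02 with upper-quartile factors).

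The cells carried macrophage markers in all 4 libraries. Lyz2 held 8662 and 12806 CPM before and 8017 and 12603 CPM after LPS, Cd68 864 and 1118 CPM and 908 and 1215 CPM, and Itgam 135 and 126 CPM and 162 and 129 CPM, none of them called. Adgre1 (F4/80) and Csf1r, the receptor of the growth factor that sustains macrophages, changed by 0.80 and -0.58 on the log2 scale. The Adgre1 call was lost when IL-4 replicate 1 or IL-4 then LPS replicate 3 was left out (adjusted p from 0.0134 to 0.075 over the 8 fits), and also with library sizes alone (adjusted p up to 0.13). The Csf1r call was lost in all 8 fits that left out 1 library (adjusted p from 0.0508 to 0.216 over the 8 fits), and also in a fit of the 4 libraries only (adjusted p up to 0.0675). Of these 8 markers 3 were called higher and 2 lower, with 1 higher without IL-4 replicate 1 or with library sizes alone. Over all tested genes 20.7% rose and 18.6% fell. The median of these 8 markers, 0.13, turned to -0.39 with library sizes alone and to -0.12 with upper-quartile factors. Together they took 1.01% to 2.02% of counts.

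Markers of other cell types were near 0. Of 9 lymphocyte markers 7 were too low to test, 6 of them, with Cd3e, Cd3g, Cd8a, Ncr1 and Cd79a among these, without a read in the 4 libraries, and the list took at most 0.00148% of counts. Of 8 neutrophil markers 7 were too low to test, with Ly6g and Elane at 0 reads. The 4 erythroid markers were all too low to test. Of 8 dendritic cell markers 5 were too low to test, with Siglech at 0 reads, and the 3 tested, Zbtb46, Xcr1 and Ccr7, were called higher from low levels. The dendritic list took 0.000149% to 0.000255% of counts before and 0.000742% to 0.00119% after LPS. Without IL-4 replicate 3 none of these 3 was called, and 1 was without IL-4 replicate 1 or IL-4 then LPS replicate 1. Xcr1 was also not called with library sizes alone (adjusted p = 0.0535). The part of such cells in the results was not tested. Some markers on other lists rose while defining markers of the same list had no read or were not called. Hdc, histidine decarboxylase, went from 0 and 0.635 CPM to 90.1 and 61.1 CPM while Mcpt8, Fcer1a and Epx had no read. Lck, a T-cell kinase, went from 0.179 and 0.635 CPM to 14.7 and 10.9 CPM with no Cd3e or Cd3g read. Of 5 tested stromal and endothelial markers 3 rose and 0 fell (median log2 fold change 1.73). Pdgfrb, a receptor of mural cells and fibroblasts, went from 0.446 and 0.997 CPM to 16.9 and 37.6 CPM, and Col1a1 and Col1a2 were not called. The endothelial Kdr and Cdh5 rose from low levels, by 1.89 and 1.73 on the log2 scale. The Kdr call was lost when IL-4 replicate 3 was left out (adjusted p from 0.00156 to 0.063 over the 8 fits). The Cdh5 call was lost when either control library, either IL-4 library or either IL-4 then LPS library was left out (adjusted p from 0.0408 to 0.205 over the 8 fits), and also with library sizes alone and with upper-quartile factors (adjusted p up to 0.114). This list took 0.00243% and 0.00412% of counts in the IL-4 libraries and 0.00929% and 0.0103% in the IL-4 then LPS libraries, and the part of such cells in the results was not tested.

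The same 4 h of LPS was also given to cells without IL-4, and the 2 effects share no library. Across the 12234 genes their log2 fold changes correlated with Pearson r = 0.927 and Spearman rho = 0.910, with a slope of 0.945 for the effect after IL-4 on the effect without it. These values are over genes, which are not independent, and all libraries share the gene-wise dispersion of the fit. Of the 4808 genes called here, 4786 had the same sign without IL-4. 4052 genes were called in both in the same direction, which is 84.3% of those called here and 82.0% of the 4942 called without IL-4. 2 genes, Bcl6 and Kif13b, were called in both with opposite directions.

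Whether an LPS effect differed with IL-4 was tested by the interaction of the 2 treatments. No gene passed (0% called, edgeR quasi-likelihood test), although 322 had an unadjusted p below 0.05. DESeq2 called 5 genes, 4 with a higher and 1 with a lower log2 effect after IL-4, and had 199 at an unadjusted p below 0.05. With all genes of at least 1 read fitted edgeR called 16 genes with a higher and 37 with a lower log2 effect after IL-4. With replicate number as a block it called 1, Bcl6 (adjusted p = 0.0259), and 789 genes had an unadjusted p below 0.05. Without the block the smallest edgeR adjusted p, 0.159, belonged to Bcl6, a transcriptional repressor of lymphoid and myeloid cells. Bcl6 rose with LPS in cells without IL-4, from 42.1 and 51.6 CPM to 92.4 and 83.6 CPM, and fell after IL-4, from 38.1 and 43.1 CPM to 18.2 and 17.9 CPM. The difference of the 2 effects was -2.08 (SE 0.21) on the log2 scale. In all 4 groups the 2 Bcl6 libraries lay close together, and the LPS-treated values did not overlap between the arms. Bcl6 was picked by its interaction p in these same libraries, so this spacing adds no support.

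The other genes that DESeq2 called were Il1b, Inhba, Kif13b and Tmem154, named here after their values were seen. The spacing of their libraries therefore adds no support to the calls. The Il1b effect was 13.15 after IL-4 and 9.23 without it, a difference of 3.92 (SE 0.82; DESeq2 adjusted p = 0.00275, edgeR adjusted p = 1). Control cells held 2.68 and 1.19 CPM against 0.179 and 0.363 CPM in the IL-4 libraries, so the arms did not overlap before LPS, nor after it, where LPS-only cells held 1355 and 1018 CPM. Inhba differed by 2.43 (SE 0.43; DESeq2 adjusted p = 0.0197), and Tmem154, a membrane protein of unsettled function, by 1.61 (SE 0.22; DESeq2 adjusted p = 0.00157). Tmem154 fell in both arms, from 119.6 and 92.3 CPM to 16.2 and 15.9 CPM without IL-4 and from 88.3 and 88.6 CPM to 43.5 and 38.5 CPM after it. Kif13b, a kinesin, went from 100.2 and 94.6 CPM to 53.2 and 67.7 CPM without IL-4 and from 76.1 and 65.8 CPM to 101 and 143 CPM after it. The call of its rise after IL-4 was lost when IL-4 replicate 3 or IL-4 then LPS replicate 3 was left out (adjusted p from 0.0087 to 0.104 over the 8 fits), and also with library sizes alone and with upper-quartile factors (adjusted p up to 0.283).

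By list, the medians of the LPS effect after and without IL-4 were 7.07 and 6.76 for inflammatory cytokines, 4.65 and 4.65 for antiviral genes, 4.995 and 5.44 for GTPases, and 2.02 and 1.96 for the NF-kB genes. The DNA replication and mitosis medians were -1.13 and -1.04. Wider gaps were seen for CXC chemokines (8.59 after and 7.24 without IL-4) and for purinergic and lipid-sensing receptors (-0.06 and 0.77). The medians were 0.79 and 1.19 for MHC class II and co-stimulation, 1.70 and 2.07 for class I presentation, 0.13 and 0.40 for glycolysis, and 0.05 and -0.17 for chemoattractant receptors. These gaps between list medians were not tested. The medians after IL-4 include fitted values of genes with 3 or fewer reads in a group. With such genes set at their bound or ratio, the medians after IL-4 were 5.77 for inflammatory cytokines, 8.19 for CXC chemokines and 4.58 for antiviral genes. The medians without IL-4 were not reset in this way. For Nos2 the 2 effects were 11.51 and 10.44, for Tnf 6.58 and 6.36, and for Cxcl10 8.59 and 8.92, with no interaction called for any of the 3. With 2 libraries a group, even differences of several standard errors could miss the threshold. That of Bcl6 was -2.08 (SE 0.21) with an edgeR adjusted p of 0.159. The lack of an interaction call therefore does not show equal effects.

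**Figure D5:**
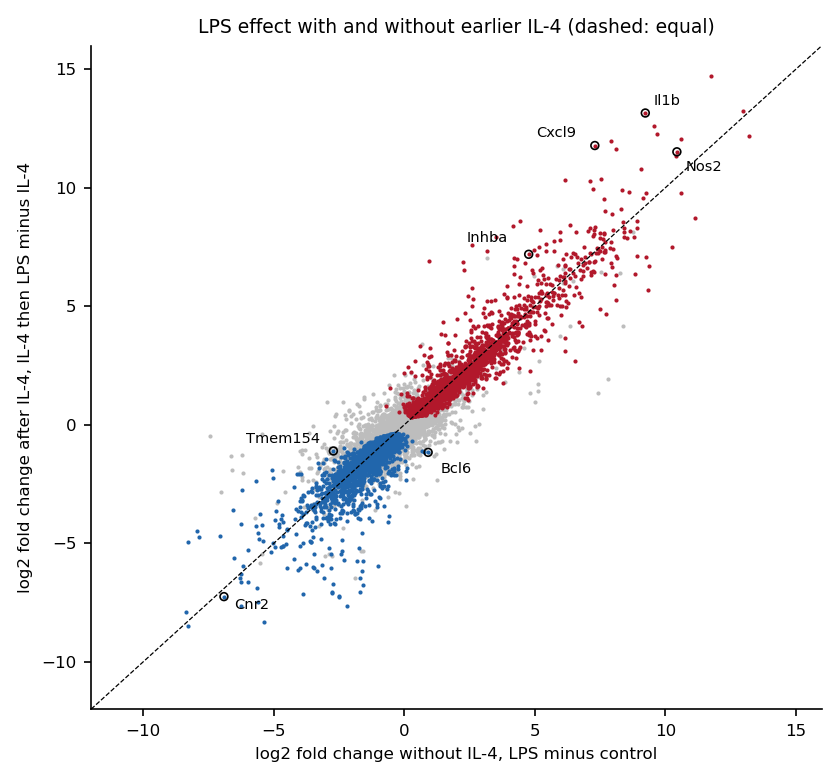
Log2 fold change with LPS in cells without IL-4 (x axis, LPS minus control) and after IL-4 (y axis, IL-4 then LPS minus IL-4) for 12234 genes, coloured by their call after IL-4 (red higher, blue lower, grey not called). The dashed line marks equal effects. Most called genes lie along it, Bcl6 lies below 0 after IL-4 and above 0 without it, and Il1b, Inhba and Cxcl9 lie above the line. Cxcl9 had no read in the IL-4 libraries, so its height depends on the prior count. With LPS it held 54.1 and 42.4 CPM after IL-4 and 84.3 and 66.0 CPM without IL-4.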

How the data were processed

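RNA-seq counts of 8 libraries of mouse BMDMs were used, 2 in each of 4 groups. Per the submitters' processing notes, reads were handled with HISAT2, StringTie and HTSeq on mm10. Their versions, settings and strandedness are not given in the sources used here, so overlapping and antisense genes cannot be told apart. The authors deposited whole-number counts per gene with gene lengths. 6 count columns that matched no sample were not used. Library totals of 7924932 to 9431852 counts set the precision, and intervals and floors (3 reads over a group) cover counting error only, at 95%.

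All 8 libraries were fitted together with edgeR 4.0.16 (R 4.3.3; limma 3.58.1), with TMM factors, filterByExpr by group, a quasi-likelihood test without a replicate term, and Benjamini-Hochberg adjustment over 12234 genes. Genes were called at an adjusted p below 0.05. SE is the log2 fold change over the square root of F. Contrasts were IL-4 then LPS minus IL-4, and the interaction with the LPS effect without IL-4. CPM used TMM-scaled library sizes, and TPM the deposited gene lengths. The fit was tested on simulated data. Promoters came from RefSeq.

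Alternatives were other scalings, filters, DESeq2 1.42.0, the 4 libraries only, a replicate block and leaving out each library. Named genes were, per list, up to 4 with the largest called rise, 4 with the largest called fall and 3 uncalled with the highest CPM. Added to these were a followed set, the 10 largest rises and falls, and genes without reads in a group. Members of small counts named otherwise were chosen after their values were seen. Some list members are counted but not reported by name here. The members and gene lists were chosen with earlier results of these data known.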

Additional observations from a re-analysis of the deposited data

How the results depend on the processing

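With library sizes alone 1546 genes rose and 5321 fell, and 161 list members fell against 76. With upper-quartile factors 3426 genes fell. With library sizes alone some genes reported here turned negative. Those that were also called, with TMM or with library sizes alone, were Anxa1 -0.38, Cs -0.022, Ctsb -0.44, Ctsh -0.38, Ctss -0.38, Dlst -0.095, Lamp1 -0.46, Lamp2 -0.0816, Ldha -0.45, Ogdh -0.52, Pcna -0.48, Sdha -0.49 and Sdhc -0.46. Genes that turned negative without a call under either scaling are not listed. No gene called with TMM was called in the opposite direction. However, 187 of the genes called higher with TMM had a negative log2 fold change with library sizes alone. Leaving out 1 library gave 1801 to 2511 genes higher, 1315 to 2294 lower, and 48 to 80 list members lower. Of 365 called list members and named genes, 275 kept the call in all 8 such fits and 90 lost it in at least 1. The interaction (LPS effect after minus without IL-4, log2) was positive for 4 and negative for 1 called gene with DESeq2, and positive for 16 and negative for 37 when all genes with at least 1 read were fitted. The causes of these changes were not tested.

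With a replicate block 3182 genes rose and 3151 fell, and 1 negative interaction was called (Bcl6, which rose without IL-4 and fell after it; adjusted p = 0.0259). The labels do not say whether libraries of the same number share an animal. The log2 differences of replicate 3 over 1 correlated across genes between the IL-4 and IL-4 then LPS groups with r = 0.407, and between 0.343 and 0.524 over all pairs of groups. With 2 libraries a group and few reads before LPS, fold changes of induced genes are limited by depth.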
